A study of Mus musculus with 4 samples.

Results

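Natural killer (NK) cells were examined among single blood cells of mice that carried MC-38 tumors, a mouse colorectal cancer line. A cell was counted as an NK cell when it held unique molecular identifiers (UMIs, the tags that mark single captured transcripts) of at least 2 of the 5 genes *Ncr1*, *Klrb1c*, *Klra8*, *Klra4* and *Klre1*, and at most 1 UMI in the sum of *Cd3d*, *Cd3e* and *Cd3g*. This rule took 73 of the 5276 kept cells, which are cells with 200 to 2900 genes detected once mitochondrial, ribosomal and hemoglobin genes were set aside. The NK cells were compared with 396 CD8 effector cells (UMIs of *Cd8a* or *Cd8b1* and of *Gzma* or *Gzmb*, and at least 2 Cd3 UMIs) and with the 4807 other kept cells.

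NK cells are lymphocytes that kill stressed, infected or transformed cells without a rearranged antigen receptor. In mice, their receptors are mostly C-type lectins: the Ly49 family (*Klra* genes) and CD94/NKG2 dimers (*Klrd1* with *Klrc* genes) read MHC class I molecules, while NKG2D (*Klrk1*), NK1.1 (*Klrb1c*) and NKp46 (*Ncr1*) activate the cell. Activating receptors signal through adaptors such as DAP12 (*Tyrobp*) and the Fc receptor gamma chain (*Fcer1g*), and killing uses perforin and granzymes released from granules.

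Blood was taken on day 18 after tumor challenge, and 1 library was made for each of 4 regimens. Untreated mice received neither agent, and the anti-PD-L1 group received 150 µg of the blocking antibody on days 10, 13 and 17. The anti-OX40/CpG group received 150 µg of the agonistic antibody with 25 µg of CpG, an immunostimulatory oligonucleotide, on day 7, and the PDOX group received both regimens; all mice were female C57BL/6 mice. The submitters' design text counts 4 mice, so mouse, library and treatment cannot be told apart, and the library whose label names OX40 alone is read here as that of mice given anti-OX40 with CpG.

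The libraries held between 2392650 and 4969885 deposited UMIs. The median UMI count per NK cell was 1547.5 in the 16 cells of the untreated library and 2137 in the 5 cells of the anti-PD-L1 library. It was 1714.5 in the 34 cells of the anti-OX40/CpG library and 1957 in the 18 cells of the PDOX library. Over all libraries this median was 1725 UMIs (range 503 to 3316), against 2213 in CD8 effector cells and 1587 in the other cells. Between libraries, 16 cell barcodes occurred more than once, and 0 of them belonged to an NK cell. At these depths, 0 UMIs of a gene in a cell can mean that its transcripts were missed.

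The share of NK cells was lowest in the anti-PD-L1 library. NK cells made up 2.04% of the kept cells in the untreated library (16 of 783; exact 95% Clopper-Pearson interval 1.17% to 3.30%). In the anti-PD-L1 library the share was 0.349% (5 of 1432; 0.114% to 0.813%). In the anti-OX40/CpG library it was 2.19% (34 of 1555; 1.52% to 3.04%), and in the PDOX library it was 1.20% (18 of 1506; 0.710% to 1.88%). Only the anti-PD-L1 interval did not overlap that of the untreated library, at 0.171 times the untreated share (0.0490 to 0.488). The anti-OX40/CpG share was 1.07 times (0.575 to 2.08) and the PDOX share 0.585 times (0.282 to 1.23) the untreated one. All intervals here cover counting error alone, and with 1 library per regimen no test between regimens was possible.

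These shares are of the cells that passed a T cell purification. The isolation kit removes cells other than T cells by antibodies to their surface proteins, NK cells among them, and was used 2 times in a row, so the NK cells described here are those that remained; whether they resemble the removed cells was not tested. Among cells with at most 1 Cd3 UMI, which hold the other cells left behind, NK cells were 16 of 140 (11.4%, interval 6.68% to 17.9%) in the untreated library and 5 of 183 (2.73%, 0.893% to 6.26%) in the anti-PD-L1 library. They were 34 of 143 (23.8%, 17.1% to 31.6%) in the anti-OX40/CpG library and 18 of 257 (7.0%, 4.20% to 10.8%) in the PDOX library. By this denominator the anti-OX40/CpG share was 2.08 times the untreated one (1.12 to 4.04) and the anti-PD-L1 share 0.239 times (0.0685 to 0.683), and the order of the 4 libraries was the same as by all kept cells. Without cells holding 2 or more UMIs of markers of other lineages, the untreated share (2.54%) lay above the anti-OX40/CpG share (2.23%), as it did with at least 3 marker genes and 0 Cd3 UMIs (1.53% and 1.29%) and in cells thinned to 750 UMIs (1.92% and 1.82%). CD8 effector cells, by contrast, were 2.17%, 5.80%, 8.49% and 10.9% of the kept cells in the same order of libraries. The part of the purification in these shares was not tested.

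**Figure D1:**
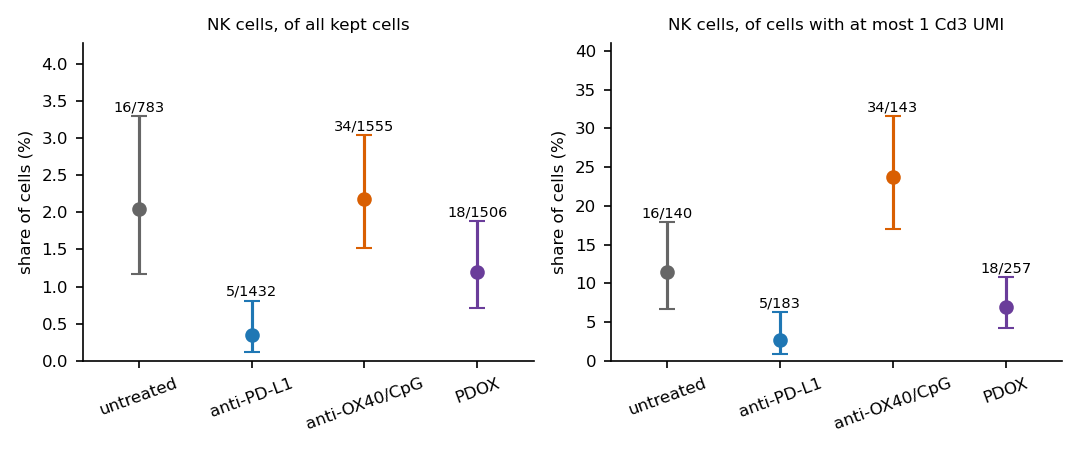
NK cells in each library as a share (%) of all kept cells (left) and of cells with at most 1 Cd3 UMI (right); points are single libraries and bars are exact 95% intervals for counting error. The anti-PD-L1 library is lowest in both panels (0.349% and 2.73%), and the anti-OX40/CpG library is highest (2.19% and 23.8%).

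The 5 marker genes chose the cells, so their levels are a description. Levels are UMIs per 10000 UMIs summed over the cells of a group, with exact 95% Poisson intervals. *Ncr1* was at 10.9, 13.2, 8.57 and 9.38 in NK cells of the 4 libraries (untreated first, then anti-PD-L1, then anti-OX40/CpG and last PDOX, the order kept for all such values) and had a UMI in 86.3% of them. *Klrb1c* was at 10.2, 9.40, 11.4 and 9.06, and *Klre1*, a lectin receptor that pairs with *Klri1* or *Klri2*, was at 16.6, 14.1, 16.8 and 15.6 and was found in 93.2% of NK cells. The levels of these 3 genes lay close together across the libraries. *Klra8* (Ly49H, the activating receptor for a viral protein) was at 18.1, 18.8, 9.23 and 10, and *Klra4* (Ly49D, activating) at 10.9, 15.0, 9.73 and 7.19. The interval of *Klra8* in untreated NK cells (13.3 to 23.97) did not overlap that in anti-OX40/CpG NK cells (6.97 to 12.0). In CD8 effector cells, which are deeper, *Ncr1* had a UMI in 1.01% and *Klre1* in 17.4% of cells, and in the other cells in 0.354% and 1.52%.

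*Klra8* and *Klra4*, found in 54.8% and 43.8% of NK cells, lie in the NK receptor region of chromosome 6 with no other listed gene between them. In the RefSeq annotation of GRCm38.p6, *Klra8* lies at chr6:130115226-130129898 and *Klra4* at chr6:130043730-130067301, while *Ncr1* lies at chr7:4337715-4345184. All 24 receptor genes of the lists from *Klrb1a* to *Klra1* lie within 1778 kb of chromosome 6. The windows around the start sites of *Klra8* (chr6:130129849-130130148) and *Klra4* (chr6:130067222-130067521), both on the minus strand, and of *Ncr1* (chr7:4337465-4337764, plus strand) are shown because the rule rests on these genes and the 2 Ly49 genes are near copies. Each runs from 250 bases before to 50 bases after the start site, 5′ to 3′, from RefSeq. Capitals mark the bases that differ between *Klra8* and *Klra4* in their alignment, and in *Ncr1* the Runx motif TGTGGT or its reverse complement ACCACA.
Klra8: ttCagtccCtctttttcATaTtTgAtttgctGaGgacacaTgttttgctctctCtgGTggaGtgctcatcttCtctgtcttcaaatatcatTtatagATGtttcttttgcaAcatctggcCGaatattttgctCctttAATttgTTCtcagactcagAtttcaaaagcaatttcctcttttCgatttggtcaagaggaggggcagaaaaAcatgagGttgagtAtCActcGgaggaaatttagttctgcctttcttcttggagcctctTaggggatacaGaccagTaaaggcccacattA
Klra4: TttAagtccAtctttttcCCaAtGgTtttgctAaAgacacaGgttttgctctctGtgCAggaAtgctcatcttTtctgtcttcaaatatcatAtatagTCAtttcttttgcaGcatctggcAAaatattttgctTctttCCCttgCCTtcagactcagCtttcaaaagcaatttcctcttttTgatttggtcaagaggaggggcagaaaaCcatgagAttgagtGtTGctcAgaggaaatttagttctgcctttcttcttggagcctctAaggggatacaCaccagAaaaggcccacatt
Ncr1: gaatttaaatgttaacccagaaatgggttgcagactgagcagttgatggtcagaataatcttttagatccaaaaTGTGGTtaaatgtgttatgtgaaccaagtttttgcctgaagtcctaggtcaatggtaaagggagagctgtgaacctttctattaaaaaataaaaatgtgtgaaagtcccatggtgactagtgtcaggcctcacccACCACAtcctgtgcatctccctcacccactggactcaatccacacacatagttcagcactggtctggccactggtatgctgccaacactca
Of 301 aligned positions, 259 (86.0%) were identical between *Klra8* and *Klra4*, which is a likeness of the same order as that of *Klra3* and *Klra9* (85.0%). *Klra8* and *Klra9* shared 45.4%, near the 45.7% of *Klra8* and *Ncr1*. The windows were aligned end to end, so a shift between annotated start sites lowers such values. The 45.4% therefore does not show that the sequences near *Klra8* and *Klra9* are unlike. The Runx motif was found in *Ncr1* at 176 bases before the start site on the plus strand and 41 bases before it on the minus strand. It was in neither *Klra8* nor *Klra4*, and it occurs in 16.8% of 32851 such windows. The core T-box motif GGTGTGA (or TCACACC), which occurs in 3.98% of the windows, was in none of the 3. A match is a run of letters and is not shown to be a site. Of the 90-base stretches in the last 500 bases of their transcripts, *Klra8* shared 1.51% with another listed gene and *Klra4* shared 0.

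At the limits of the rule, cells differed in what they held. Of the 73 NK cells, 14, 22, 20 and 17 held UMIs of 2, 3, 4 and 5 marker genes, and 62 held 0 Cd3 UMIs and 11 held 1. The 14 cells with 2 marker genes had *Tyrobp* at 46.8, *Fcer1g* at 39.9 and *Gzma* at 167 UMIs per 10000, with 0 UMIs of *Cd8b1*. The 15 cells with 1 marker gene and at most 1 Cd3 UMI, just outside, had lower values (26.8, 24.1 and 54.5), with *Cd8b1* in 6 cells, 165 UMIs of *Lyz2* in 2 cells, and 0 UMIs of *Irf8* and *Eomes*. Another 24 cells held at least 2 marker genes but 2 or more Cd3 UMIs, 18 of them in the anti-OX40/CpG library. All 24 had UMIs of *Nkg7*, and 11 had UMIs of *Cd8b1*. *Klrd1* had UMIs in 22, *Fcer1g* in 16 and *Tyrobp* in 11 of the 24 cells, with *Gzma* at 107 UMIs per 10000.

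The label was checked with NK genes outside the rule. *Tyrobp* had a UMI in 97.3%, *Fcer1g* in 98.6%, *Klrd1* in 89.0% and *Klrk1* in 90.4% of NK cells. In CD8 effector cells *Tyrobp* and *Fcer1g* had a UMI in 6.31% and 3.79%. *Klrd1* and *Klrk1* were found in CD8 effector cells too, at lower levels than in NK cells, so they separate these cells less well. Of the 24 cells with at least 2 marker genes and 2 or more Cd3 UMIs, 22 had UMIs of *Klrd1* and 19 of *Klrk1*. The transcription factors *Eomes* and *Tbx21* had UMIs in 30.1% and 28.8% of NK cells and in 12.9% of CD8 effector cells each. *Cd3d*, *Cd3e* and *Cd3g* together had 11 UMIs, as the rule demands. T cell receptor constant genes were not analysed here, so cells of the NKT or gamma-delta type with few Cd3 UMIs could not be told apart by them.

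For each gene outside the rules, UMIs were summed per library and kind of cell, and the sums were compared with edgeR's quasi-likelihood test with the library as a block. The 3 libraries with at least 10 NK cells entered (untreated, anti-OX40/CpG and PDOX), and the 5 anti-PD-L1 NK cells did not. The 12 genes that chose the NK or the CD8 effector cells were left out. The cells were still chosen from the same UMIs, so genes that go along with the marker genes from cell to cell were favored by the choice. The filter on low counts lets a sparse gene enter through the kind of cell where it is high. Counts of called genes among the tested genes of a list are therefore favored by the filter. Against CD8 effector cells, 64 of 754 genes tested were higher in NK cells (8.49%) and 67 were lower (8.89%), 17.4% in all, at an adjusted p under 0.05, with a median log2 fold change of 0.03 over all genes tested. Against the other cells, 199 of 6740 were higher (2.95%) and 391 lower (5.80%), 8.75% in all, with a median of -0.29.

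The Ly49 genes outside the rule were higher in NK cells. *Klra9* (Ly49I, inhibitory) was at 11.7, 12.2, 8.41 and 12.5 UMIs per 10000 in the 4 libraries of NK cells, and at 0, 0.178, 0.589 and 0.0740 in CD8 effector cells. *Klra7* (Ly49G, inhibitory) was at 6.03, 5.64, 3.96 and 5.94, against 0, 0.285, 0.786 and 0.0493. NK cells and CD8 effector cells did not overlap in any library for either gene. These were the 2 of 9 listed genes that could be tested against CD8 effector cells, and both were called, *Klra9* at a log2 fold change of 5.11 ± 0.39 (SE; edgeR adjusted p = 4.08e-10) and *Klra7* at 3.84 ± 0.59 (adjusted p = 2.06e-05). Both passed the filter on low counts through NK cells, so this count of calls was favored by the filter. Compared with the other cells, 4 of 4 tested were higher (median log2 fold change 5.21), among them *Klra3* (Ly49C) at 5.49 ± 0.47 and *Klra1* (Ly49A) at 3.79 ± 0.66. *Klra1* had 19 UMIs in 6 NK cells and lost its call without the PDOX library (2.20). *Klra2* and *Klra17* had 0 UMIs in NK cells, and *Klra5*, *Klra6* and *Klra10* had 5, 4 and 1. *Klra3*, *Klra9* and *Klra10* share 4.16%, 4.73% and 5.23% of their 90-base stretches with a listed gene, and reads from such stretches could be lost or split between them.

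The other lectin receptors went the same way. All 7 of the 13 listed genes that could be tested were higher than in CD8 effector cells, with a median log2 fold change of 2.02. The filter on low counts favored such a count, since a sparse gene such as *Klri2* passed it through NK cells. *Klri2*, the partner of *Klre1*, was at 3.39, 4.70, 3.46 and 4.38 UMIs per 10000, against at most 0.143 in any library of CD8 effector cells (6.47 ± 0.92, adjusted p = 8.25e-06). *Klrk1* was at 19.96, 18.8, 16.5 and 19.1, against 1.46, 6.17, 5.33 and 5.45 (2.02 ± 0.21). Its level in NK cells thus stayed in a narrow range, while the untreated CD8 effector cells lay below those of the treated libraries.

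The CD94/NKG2 genes were higher in NK cells too. *Klrd1* (CD94) was at 15.4, 18.8, 16.98 and 15.3 in NK cells and 3.79, 7.63, 6.01 and 9.40 in CD8 effector cells (1.36 ± 0.20). *Klrc1* (NKG2A, inhibitory) was at 4.52, 1.88, 9.73 and 7.50, against 0.874, 2.89, 3.09 and 3.04 (1.65 ± 0.23), so that in the anti-PD-L1 library, which did not enter the test, the 2 UMIs of the 5 NK cells put it below the CD8 effector cells. *Klrc2* (NKG2C) was at 6.40, 5.64, 7.75 and 4.38 (2.47 ± 0.27). *Klrc1* shares 21.97% and *Klrc2* 6.36% of the 90-base stretches with another listed gene, mostly each other, so their split is uncertain to that extent. *Klrg1*, an inhibitory receptor of mature NK and effector T cells, was at 5.27, 2.82, 5.77 and 5.63 (1.78 ± 0.31), and *Klrb1a*, a relative of NK1.1, at 2.64, 2.82, 2.47 and 2.19 (6.21 ± 1.25). In the comparison with the other cells, 9 of 10 tested were higher (median 4.29), and *Cd69*, an early activation marker, was lower (-1.64 ± 0.38; -1.17 and not called without the PDOX library).

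Receptors outside the lectin family were too sparse for most tests against CD8 effector cells. Of the 10 tested against the other cells, 4 were higher, *Cd244* (2B4) at 3.61 ± 0.51, *Slamf7* at 2.92 ± 0.57, *Cd160* at 2.39 ± 0.55 and *Cd48* at 0.75 ± 0.23. The call of *Cd160* was lost without the anti-OX40/CpG library (1.11), and that of *Cd48* without any 1 of the 3 (0.56 to 0.75). *Cd96* was lower (-2.69 ± 0.77), with 2 UMIs in all NK cells, and lost its call without the anti-OX40/CpG (-2.73) or the PDOX library (-2.26). The checkpoint receptor genes *Pdcd1*, *Lag3*, *Havcr2* and *Tigit* had 0, 1, 1 and 1 UMIs in NK cells. *Pdcd1*, the PD-1 gene, was at 0, 0.356, 1.52 and 0.543 UMIs per 10000 in CD8 effector cells, at least 3.79 times the level in NK cells when their 0 UMIs are read as up to 3.

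**Figure D2:**
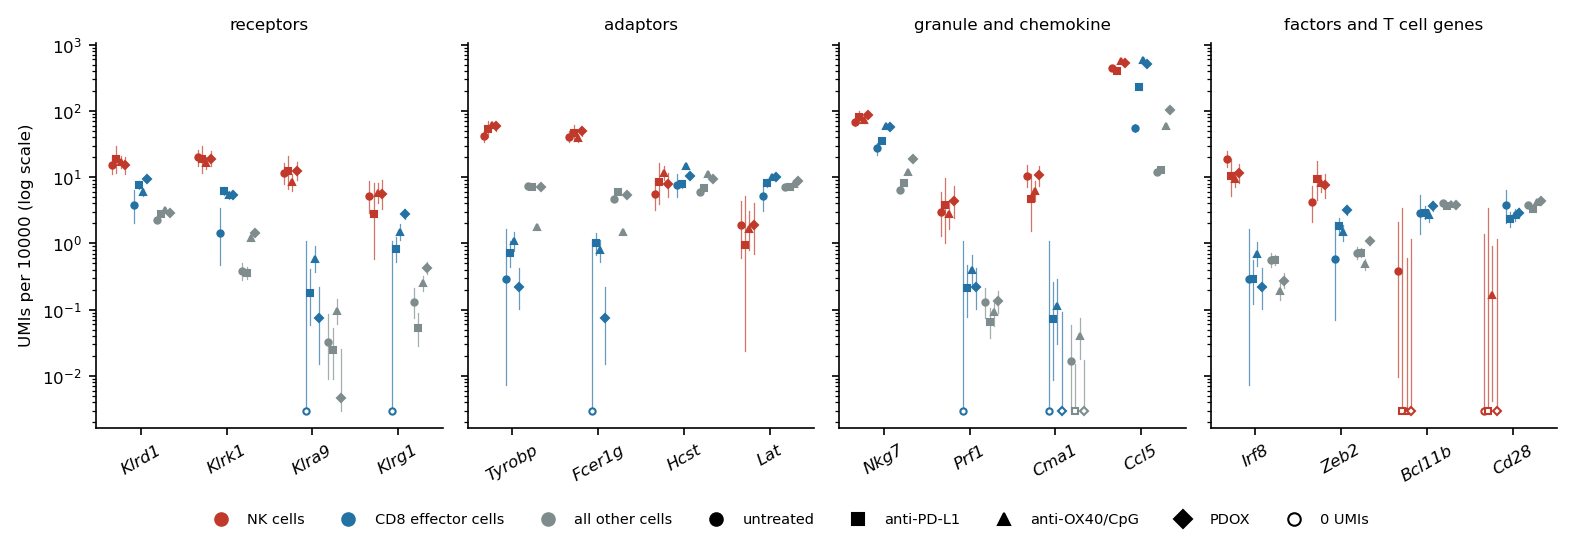
UMIs per 10000 (log scale) of receptor, adaptor and effector genes in NK cells (red), CD8 effector cells (blue) and all other cells (gray), 1 symbol per library with its exact 95% Poisson interval; open symbols at the bottom are libraries with 0 UMIs. For *Tyrobp* and *Fcer1g*, every library of NK cells lies between 39.1 and 60.7, above every library of the other 2 groups.

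The adaptors that carry the signal of these receptors set NK cells apart from CD8 effector cells by the widest margins after *Cma1*. *Tyrobp* (DAP12) was at 41.8, 53.6, 60.7 and 58.5 UMIs per 10000 in NK cells, against 0.291, 0.713, 1.07 and 0.222 in CD8 effector cells (6.71 ± 0.30, adjusted p = 1.09e-14). *Fcer1g* was at 40.7, 47.0, 39.1 and 49.7, against 0, 0.998, 0.786 and 0.0740 (6.89 ± 0.35, adjusted p = 1.20e-13). Both were also higher than in the other cells (3.38 ± 0.22 and 3.5 ± 0.21), which hold myeloid cells that use the same adaptors. *Lat2*, an adaptor related to LAT, was higher (4.08 ± 0.75), with 37 UMIs in 28 NK cells. The DAP10 gene *Hcst* (-0.28 ± 0.18) and *Cd247*, the zeta chain shared with the T cell receptor (-0.64 ± 0.30), were not called, so 3 of 5 tested adaptors were higher and 0 lower.

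Most of the tested granule genes were higher in NK cells, *Cma1* foremost. *Gzma* and *Gzmb* chose the CD8 effector cells and were not tested. *Gzma* was at 202, 208, 192 and 238 UMIs per 10000 in NK cells and 4.37, 29.8, 29.9 and 42.8 in CD8 effector cells, and *Gzmb* was at 23.4, 25.4, 12.0 and 15.6, against 2.04, 6.17, 8.79 and 10.9. NK cells of every library thus lay above the CD8 effector cells of every library for both granzymes. For *Gzmb* the closest values were 12.0 in anti-OX40/CpG NK cells and 10.9 in PDOX CD8 effector cells. The rule for CD8 effector cells asks only for UMIs of either gene, so these levels are a description. *Cma1*, a chymase best known from mast cells, was at 10.6, 4.70, 6.26 and 10.6, against 0, 0.0713, 0.112 and 0 (7.26 ± 0.48, adjusted p = 2.49e-11). *Prf1* (perforin) was at 3.01, 3.76, 2.80 and 4.38, against 0, 0.214, 0.393 and 0.222 (3.68 ± 0.65). The proteases and inhibitors *Ctsw* (1.24 ± 0.21) and *Serpinb6b* (1.15 ± 0.38) and the granule membrane gene *Nkg7* (0.81 ± 0.22) were called with smaller differences, as was *Ctsd* (0.64 ± 0.17). *Serpinb6b* and *Nkg7* lost their call without the PDOX library (0.85 each), *Serpinb6b* also without the untreated one (0.82), and *Ctsd* without any 1 of the 3 libraries (0.42 to 0.74). In all, 6 of 8 tested granule genes were higher, and *Cst7* (0.31 ± 0.24) and *Srgn* (-0.41 ± 0.20) were not called. Of 18 tested against the other cells, 9 were higher, among them *Serpinb9*, an inhibitor of granzyme B, at 3.77 ± 0.48 and *Fasl*, the Fas ligand, at 3.53 ± 0.56, and the lysosomal gene *Lamp1* was lower (-1.66 ± 0.45; -1.19 and not called without the PDOX library).

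Mast cell and basophil genes did not accompany *Cma1*. The 6 basophil genes *Mcpt8*, *Prss34*, *Cpa3*, *Ms4a2*, *Cd200r3* and *Gata2* had 0 UMIs in the 73 NK cells, which allows up to 0.284 UMIs per 10000 by the exact interval. The 105 UMIs of *Cma1* were spread over 39 NK cells, with at most 9 in 1 cell.

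**Figure D3:**
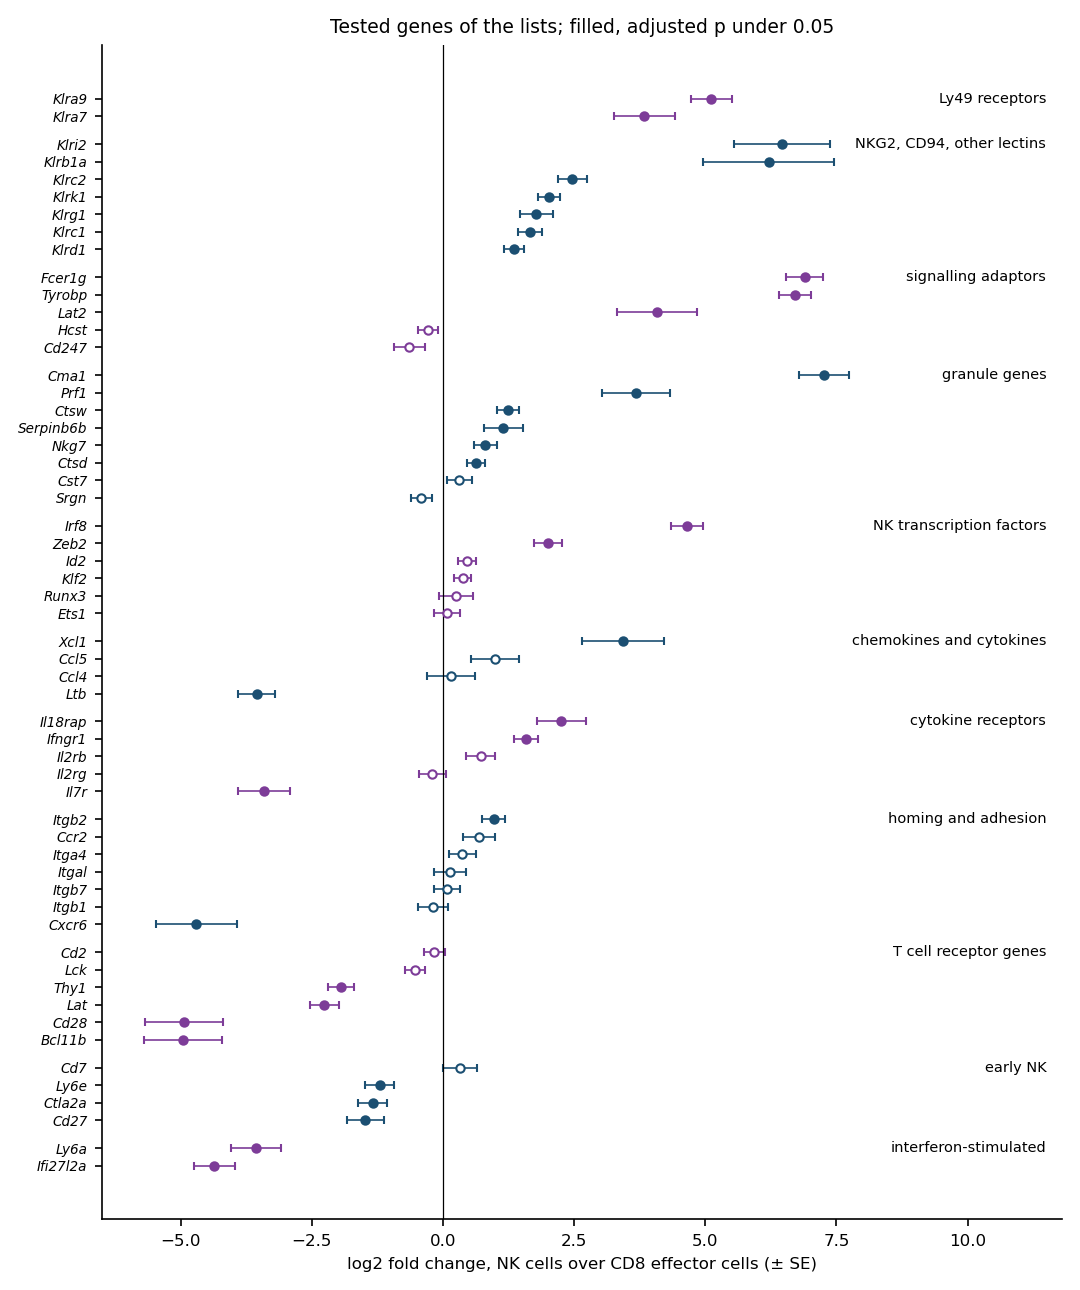
Log2 fold change of NK cells over CD8 effector cells for tested genes of 11 gene lists; points are edgeR estimates, bars are SE and filled points have an adjusted p under 0.05. Lectin receptors, adaptors and granule genes lie mostly to the right, and T cell receptor genes and *Ifi27l2a* and *Ly6a* to the left.

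Of the transcription factors, *Irf8* and *Zeb2* were higher than in CD8 effector cells. *Irf8*, which NK and myeloid cells use, was at 18.8, 10.3, 9.23 and 11.6 UMIs per 10000 in NK cells and at most 0.702 in any library of CD8 effector cells (4.65 ± 0.31, adjusted p = 2.57e-11). It had UMIs in 49 NK cells. *Zeb2*, a factor of late NK and effector T cell maturation, was at 4.14, 9.40, 8.08 and 7.50, against 0.583, 1.85, 1.46 and 3.21 (2.0 ± 0.26). The inhibitor of E proteins *Id2* was at 15.4, 15.0, 19.8 and 18.4 and did not pass the test (0.46 ± 0.17, adjusted p = 0.068), nor did *Klf2*, *Runx3* and *Ets1*. *Eomes* and *Tbx21*, the T-box factors of NK cells, had too few UMIs for that test. Compared with the other cells, *Eomes* (3.31 ± 0.51), *Tbx21* (3.64 ± 0.52) and *Id2* (1.68 ± 0.20) were called with *Irf8* and *Zeb2*, so 5 of 15 tested factors were higher, and *Tox* (-2.38 ± 0.83) and *Ikzf2* (-3.04 ± 0.72) were lower. The call of *Tox* was lost without the anti-OX40/CpG (-2.07) or PDOX library (-2.02). It was also lost under other settings, among them DESeq2 (-2.29), no replicate block (-2.28) and 750 UMIs per cell (-2.08).

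Chemokine and cytokine genes gave 1 call in each direction against CD8 effector cells. *Xcl1*, the chemokine for cross-presenting dendritic cells, was at 5.65, 0, 2.14 and 3.13 UMIs per 10000, against 0.583, 0.249, 0.533 and 0 (3.43 ± 0.78, adjusted p = 0.00204), and its 38 UMIs lay in 12 NK cells. *Ltb* (lymphotoxin beta) was at 0.377, 0, 0.659 and 0.938, against 11.1, 9.95, 7.86 and 7.58, and was lower (-3.55 ± 0.35). *Ccl5* was at 438, 404, 566 and 531 in NK cells, with UMIs in all 73 of them. In CD8 effector cells it was at 54.8, 231, 577 and 514, so that the untreated and anti-PD-L1 NK cells lay above and the other 2 libraries close to their CD8 effector cells (0.99 ± 0.47, adjusted p = 0.16). *Ccl4* was at 18.1, 1.88, 2.80 and 1.56, but 37 of the 48 UMIs in untreated NK cells came from 1 cell. In the comparison with the other cells *Ccl4*, *Ccl5*, *Ifng* and *Xcl1* were higher, 4 of 7 tested, *Ltb* was lower, and *Ccl4* lost its call without the untreated library (0.55), *Ifng* without the anti-OX40/CpG (2.67) or PDOX library (2.46).

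Of the cytokine receptors, *Il18rap*, a subunit of the interleukin-18 receptor, was at 4.52, 2.82, 2.64 and 4.06 UMIs per 10000 and was higher than in CD8 effector cells (2.26 ± 0.47). *Ifngr1* was at 9.42, 2.82, 7.09 and 6.25, and was higher too (1.58 ± 0.23). *Il7r*, the interleukin-7 receptor of naive and memory T cells, was at 0.377, 0, 0.330 and 0.313, against 7.58, 1.89, 3.20 and 2.25, and was lower (-3.41 ± 0.49). *Il2rb*, which binds interleukin-15 in NK cells, was not called against CD8 effector cells (0.72 ± 0.27, adjusted p = 0.072) and was higher than in the other cells (1.65 ± 0.30). Against the latter, 3 of 12 receptors were higher and 3 lower (*Il7r*, *Il6ra* and *Il2rg*), with *Il6ra* at 0 UMIs in NK cells. Over all genes tested there, 2.95% were higher and 5.80% lower. *Il2rg*, the common gamma chain, was at -0.86 ± 0.26 and lost its call without any 1 of the 3 libraries (-0.95 to -0.87).

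The genes of mature NK cells were mostly higher and those of early NK cells mostly lower. Of the mature NK list, 5 of 8 tested genes were higher than in CD8 effector cells (*Cma1*, *Irf8*, *Klrg1*, *Prf1* and *Zeb2*; median log2 fold change 1.89). Of 12 tested against the other cells 8 were higher, among them *S1pr5*, the receptor by which NK cells leave the bone marrow, at 4.48 ± 0.44 with 50 UMIs in 34 NK cells. Of the early NK list, which shares most of its tested genes with T cells, 7 of 10 were lower than in CD8 effector cells (*Cd27*, *Cd28*, *Ctla2a*, *Il7r*, *Ltb*, *Ly6e* and *Thy1*; median -1.41) and *Xcl1* was higher. *Cd27* was at 0.753, 0.940, 1.48 and 0.938 UMIs per 10000, against 3.21, 3.49, 3.51 and 3.75 (-1.49 ± 0.35). Without the PDOX library *Cd27* (-1.37), *Ctla2a* (-1.02) and *Ly6e* (-1.45) were not called. Of 14 early NK genes tested against the other cells, 9 were lower and 3 higher (*Cd160*, *Cd7* and *Xcl1*). Of these 3, *Cd160* (1.11) and *Cd7* (-0.50) were not called without the anti-OX40/CpG library. The genes of type 1 innate lymphoid cells, close relatives of NK cells that stay in tissues, had 23 UMIs in 20 NK cells over the 11 listed genes. *Cd200r4* had 8 of them, *Rora* 5, *Il7r* 4, *Inpp4b* 2, and *Itga1*, *Cxcr6*, *Cd200r1* and *Tmem176b* 1 each, while *Tnfsf10*, *Tmem176a* and *Zfp683* had 0. Both genes tested against CD8 effector cells were lower, *Il7r* and *Cxcr6* (-4.70 ± 0.78). Of 6 tested against the other cells, 3 were lower (*Il7r*, *Cxcr6* and *Inpp4b*) and *Cd200r4* was higher (3.07 ± 0.76), with its call lost without the untreated (2.50) or anti-OX40/CpG library (2.99). *Inpp4b* lost its call without the anti-OX40/CpG (-1.78) or PDOX library (-2.36).

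Of the homing and adhesion genes, 1 of 8 tested was higher (8.49% over all genes tested), *Itgb2* (the beta 2 integrin chain) at 7.16, 11.3, 6.92 and 5.94 UMIs per 10000, against 2.62, 2.85, 3.56 and 4.14 (0.96 ± 0.23). The call of *Itgb2* was lost with DESeq2 (1.01), with no filter on low counts (0.68) and at 750 UMIs per cell (0.88). Against the other cells *Ccr7* (-5.83 ± 0.63), *S1pr1* (-2.53 ± 0.42), and *Cxcr6*, of which the first 2 guide naive T cells through lymph nodes, were lower, and *Ccr2*, *Itgax*, *Itgb2* and *S1pr5* were higher. *Ccr2* was not called without the anti-OX40/CpG library (0.63), nor *Cxcr6* without the PDOX library (-2.78). In *Itgam*, the CD11b gene, NK cells had 26 UMIs in 22 cells, and the gene did not enter the test.

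Most of the tested T cell genes were lower in NK cells. *Bcl11b*, the factor that commits cells to the T lineage, had 1 UMI in the 73 NK cells and was at 2.91, 2.92, 2.64 and 3.65 UMIs per 10000 in CD8 effector cells (-4.95 ± 0.74, adjusted p = 1.57e-05). *Cd28*, the costimulatory receptor, also had 1 UMI, against 3.79, 2.32, 2.67 and 2.89 (-4.93 ± 0.74). *Lat* (-2.26 ± 0.28) and *Thy1* (-1.94 ± 0.25) were lower as well, which made 4 of 6 tested genes of the list, and *Lck* (-0.53 ± 0.19, adjusted p = 0.052) and *Cd2* (-0.16 ± 0.20) were not called. Against the other cells 11 of 14 were lower, among them *Tcf7* (-3.67 ± 0.43) and *Lef1* (-3.04 ± 0.35), the factors of naive T cells.

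Some interferon-stimulated genes were lower in NK cells. *Ifi27l2a* was at 0, 0, 0.824 and 0.313 UMIs per 10000, against 15.2, 17.2, 8.79 and 12.3 in CD8 effector cells (-4.36 ± 0.39, adjusted p = 4.97e-09), and *Ly6a* (Sca-1) was at 0, 0.940, 0.330 and 0.625, against 5.25, 40.7, 2.50 and 7.23 (-3.57 ± 0.47). *Ifitm1*, an interferon-induced gene outside the list, had 0 UMIs in NK cells and 0, 39.6, 5.81 and 6.88 UMIs per 10000 in CD8 effector cells. Of the list of 22 genes, *Ifi27l2a* and *Ly6a* alone could be tested there, and against the other cells 5 of 15 were lower, with *Bst2* (-3.35 ± 0.56) and *Isg15* (-2.82 ± 0.74) among them. Over all genes tested against the other cells, 5.80% were lower. *Isg15* had 2 UMIs in NK cells and lost its call without the untreated (-2.47) or PDOX library (-1.92). *Irf7*, *Gbp4*, *Zbp1* and *Rtp4* were not called.

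Of 11 tested MHC class I pathway genes, 2 were called, near the share over all 754 genes tested against CD8 effector cells (17.4%). *H2-Q7* (-0.71 ± 0.19) and the immunoproteasome subunit *Psmb8* (-0.64 ± 0.19) were lower. The other 9 were not called, *H2-K1* (0.08 ± 0.17), *H2-D1* (0.34 ± 0.19) and *B2m* (-0.16 ± 0.21) among them. Both calls were lost without the anti-OX40/CpG (-0.71 and -0.48) or the PDOX library (-0.93 and -0.78). *Mki67* and *Ccna2*, genes of dividing cells, had 0 UMIs in NK cells and *Top2a* and *Cdk1* had 1 each. Of 4 tested cell cycle genes, 3 were called, 1 higher and 2 lower, against 17.4% called in either direction over all genes tested. The histone variant *H2afz* was higher (0.79 ± 0.17) and *Tubb5* lower (-1.44 ± 0.22) than in CD8 effector cells. *H2afz* was not called without the anti-OX40/CpG (0.80) or PDOX library (0.88). *Hmgb2* was called lower (-0.73 ± 0.22), with 24 of its 94 NK UMIs in 1 PDOX cell, and was at 0.32 and not called when the 5% of cells with the most UMIs were left out.

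Genes outside the lists also separated NK cells from CD8 effector cells. Among the 10 genes higher by the most, *Atp1b1*, a subunit of the sodium pump, was at 3.77, 5.64, 4.95 and 3.75 UMIs per 10000, against 0, 0.570, 0.702 and 0.0740 (3.77 ± 0.58, adjusted p = 2.10e-05). Among the 5 lower by the most, *Gm8369* and *Klk8*, a kallikrein protease gene, had 1 UMI each in NK cells, and 413 and 352 in CD8 effector cells (-5.40 ± 0.66 and -5.16 ± 0.69). *Cma1*, *Fcer1g*, *Tyrobp*, *Klri2*, *Klrb1a*, *Klra9*, *Irf8*, *Lat2* and *Klra7* were the others higher by the most, and *Bcl11b*, *Cd28* and *Cxcr6* the others lower.

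Several of the genes higher by the most against the other cells had few UMIs outside NK cells. *Klrb1b* and *Serpinb9b* had 0 UMIs in the other cells and entered the test through NK cells alone. *Klrb1b*, an inhibitory receptor of the NK1.1 family, had 33 UMIs in 19 NK cells and 0 UMIs in 4807 other cells, at least 505 times higher in the 3 tested libraries when 0 is read as up to 3 UMIs. *Serpinb9b*, a serpin related to *Serpinb9*, had 16 UMIs in NK cells, at 3.01, 0, 0.165 and 2.19 UMIs per 10000, and 0 in both other groups, at least 252.5 times higher than in the other cells. *Scimp*, a membrane adaptor, was at 6.70 ± 0.60, *Styk1*, a kinase-like receptor, at 6.19 ± 0.66, and *Gpx8*, a peroxidase of the endoplasmic reticulum, at 6.54 ± 0.64, each with 17 to 25 NK UMIs. *Khdc1a* (8.50 ± 0.76) had 14. The genes lower by the most, *S100a8*, *S100a9*, *Dapl1*, *Ifitm3* and *Ifitm1*, had 0 UMIs in NK cells, and their levels in the other cells were at least 34.7, 29.4, 25.3, 19.3 and 19.7 times the highest that 3 UMIs would allow.

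Summed over the libraries, markers of B cells, monocytes, neutrophils and dendritic cells added up to less in NK cells than in the 2 other groups. For monocyte and neutrophil markers the intervals of NK cells overlapped those of CD8 effector cells. In the PDOX library NK cells lay above CD8 effector cells for both (2.19 against 1.53 and 0.313 against 0.0987 UMIs per 10000). The 8 B cell markers added up to 0.770 UMIs per 10000 (10 UMIs), with *Cd79a*, *Cd79b*, *Ms4a1* and *Ebf1* at 0, and ranged from 0 to 1.88 over the libraries. The 8 monocyte markers added up to 1.23 (16 UMIs, range 0 to 2.26), with *Csf1r*, *Ifitm6*, *Fn1* and *Clec4a3* at 0, and the 7 neutrophil markers to 1 UMI, with *S100a8* and *S100a9* at 0. The 8 dendritic cell markers added up to 2.0 (26 UMIs, range 1.51 to 2.82). Of the 8 ILC2 markers only *Gata3* was found, at 1.16 UMIs per 10000, against 1.25 in CD8 effector cells and 1.10 in the other cells. The 6 erythroid markers, mostly hemoglobin genes, added up to 2.62 (34 UMIs in 27 cells, range 0 to 4.90), against 1.83 and 12.4. *Lyz2* had UMIs in 9.59% of NK cells, 12.6% of CD8 effector cells and 18.2% of the other cells, and was at 0.539, 0.576 and 22.8 UMIs per 10000. Platelet markers added up to 2.08 UMIs per 10000 in NK cells, above the 0.632 of CD8 effector cells and the 1.41 of the other cells. They reached 5.31 UMIs per 10000 in PDOX NK cells (17 UMIs in 4 cells), against 0.753 to 1.15 in the other libraries, and *Gp1bb*, 1 of the 6, was higher in NK cells than in the other cells (3.96 ± 0.67). Its 13 UMIs lay in 11 NK cells, and *Pf4* (platelet factor 4) had UMIs in 2 NK cells. Leaving out cells with 2 or more UMIs of such markers took 1 NK cell away and gave 119 called genes against CD8 effector cells and 601 against the other cells, in place of 131 and 590.

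Within the NK cells, Ly49 genes occurred in many combinations. Counting *Klra8*, *Klra4* and the other listed Ly49 genes, 8 NK cells held 0, 13 held 1, 19 held 2, 16 held 3, 12 held 4, 4 held 5 and 1 held 6 of them. *Klra8* and *Klra4* were found together in 23 cells, *Klra8* alone in 17, *Klra4* alone in 9 and neither in 24. *Klrc1* was found with *Klra9* in 17 cells, without it in 17, and neither in 16. The median depth of 1725 UMIs limits such counts, since a gene at 1 UMI in a cell is easily missed, and no test was made. *Klra8* and *Klra4* also belong to the rule, so it favored cells with Ly49 UMIs. The rule thus shaped these counts and those by library. All 16 untreated and all 5 anti-PD-L1 NK cells held at least 1 Ly49 gene, and the 8 cells with 0 came from the anti-OX40/CpG (4) and PDOX (4) libraries.

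The 8 NK cells without a Ly49 UMI differed from the other 65 in their values, though the comparison was drawn up after the values had been seen and all 5 marker genes belong to the rule. Cells without *Klra8* and *Klra4* could enter only through the other 3. The 8 cells came from the anti-OX40/CpG and PDOX libraries, while the 65 include all untreated and anti-PD-L1 NK cells. Differences between libraries therefore also enter this comparison. *Gzma* was at 68.0 UMIs per 10000 (interval 55.4 to 82.5) against 225 (216 to 234), and *Gzmb* at 4.66 against 17.9. *Cd7* was at 23.3 (35 UMIs in 5 cells) against 2.87, *Cd160* at 7.33 against 0.784, *Xcl1* at 8.66 against 2.18, *Ctla2a* at 9.33 against 1.48 and *Cd27* at 4.00 against 0.784. For *Cd27* the intervals overlapped (1.467 to 8.70 against 0.358 to 1.488). The deepest of the 8 cells, with 3316 UMIs, held 22 of the 35 *Cd7*, 11 of the 14 *Ctla2a* and 34 of the 81 *Tyrobp* UMIs and 0 of *Gzma*. Without it, an alternative chosen after seeing the data, *Cd7* was at 11.1, *Ctla2a* at 2.57 (interval 0.529 to 7.50), *Tyrobp* at 40.2 and *Gzma* at 87.2, so that *Ctla2a* no longer stood apart from the 65 cells by its interval. *S1pr5* and *Itgam* had 0 UMIs, against 4.36 and 2.26 per 10000 in the others. For *Itgam* the intervals overlapped (0 to 2.46 against 1.48 to 3.32). *Tyrobp* (54.0 against 55.9), *Klrk1* (16.7 against 18.2) and *Klrd1* (17.3 against 16.3) had counting intervals that overlapped between the 8 and the 65 cells. The median depth was 1881.5 UMIs in the 8 cells and 1725 in the 65.

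**Figure D4:**
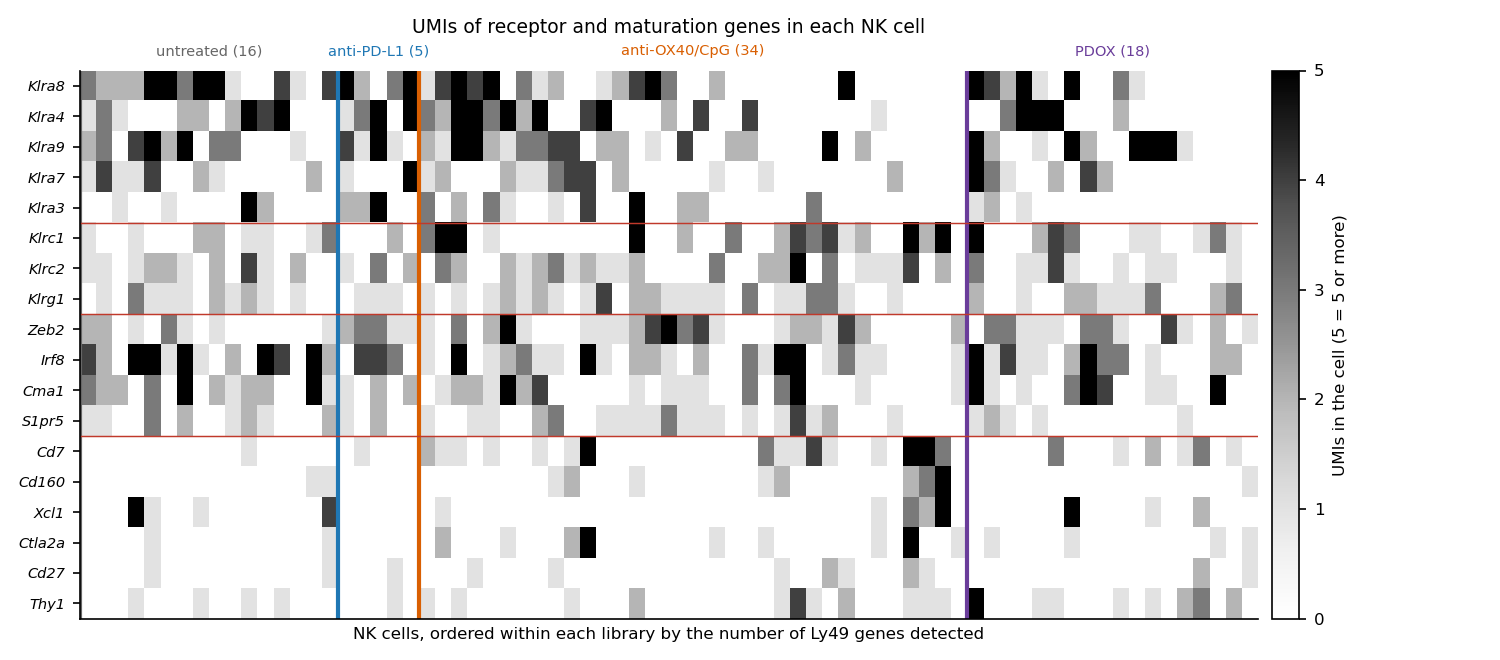
UMIs of receptor and maturation genes (rows) in each of the 73 NK cells (columns), grouped by library and ordered by the number of Ly49 genes detected; the color scale stops at 5 UMIs or more. The 8 cells without a Ly49 UMI stand at one end of the anti-OX40/CpG and PDOX blocks, 4 in each.

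Between regimens, levels within NK cells were set against those of the untreated library for genes with at least 30 UMIs in the 2 libraries' NK cells together, with no test. In the anti-PD-L1 library 2 of 136 genes were at least 2 times higher (1.47%) and 13 at least 2 times lower (9.56%). In the anti-OX40/CpG library 28 of 406 were higher (6.90%) and 16 lower (3.94%), and in the PDOX library 6 of 251 were higher (2.39%) and 9 lower (3.59%).

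Of the 5 genes with the highest ratios in PDOX NK cells, *S100a6*, *H2-Q7*, *Hmgb2* and *Psmb1* were also above 1 in both other kinds of cells. *Hmgb2* was at 1.15 times in CD8 effector cells and 1.57 times in the other cells, and *Psmb1* at 1.515 and 1.17 times. In CD8 effector cells the intervals of *Hmgb2* and *Psmb1* held 1. Of the 33 *Hmgb2* UMIs in PDOX NK cells, 24 lay in 1 cell, so its place among the highest ratios rests largely on that cell. *Atp5j2* was at 0.876 and 1.115 times. *S100a6*, a calcium-binding protein of activated lymphocytes, was at 7.53, 14.1, 26.1 and 28.8 UMIs per 10000 in the 4 libraries and thus also high in the anti-OX40/CpG library. It was 3.82 times the untreated level in PDOX NK cells (2.34 to 6.54), 2.25 times in CD8 effector cells and 2.36 times in the other cells. *H2-Q7* was 3.24 times (1.59 to 7.27), against 1.72 and 1.64 times. The heat shock gene *Hspa1a* was 0.0889 times (0.0173 to 0.288; 28 and 3 UMIs), against 0.563 times in the other cells (CD8 effector cells had 0 and 7 UMIs), and the stress-linked genes *Klf6* and *Dnaja1* were 0.287 and 0.311 times, against 0.614 and 0.549 times in CD8 effector cells and 0.850 and 0.855 times in the other cells. *Ccl4* went the other way from the other cells, at 0.0865 times (0.0269 to 0.216) against 5.89 times (1.74 times, 0.724 to 5.49, in CD8 effector cells), but without the cell with the most UMIs in each library, an alternative chosen after seeing the data, it was at 0.272 times.

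In anti-OX40/CpG NK cells the highest ratio was that of *Cd7*, a T and NK cell surface protein, with 1 UMI in untreated and 55 UMIs in anti-OX40/CpG NK cells, 22 of them in 1 cell (24.1 times, interval 4.15 to 968), against 0.963 times in CD8 effector cells and 1.31 times in the other cells. *Gm10076* (18.5 times) and *Gm2000* (5.84 times), which are predicted genes, were higher in all 3 kinds of cells, with *Gm10076* at 6.19 times in CD8 effector cells and 7.84 times in the other cells. *Gm8730* was lower in all 3 (0.248, 0.198 and 0.295 times). For these 3 genes the ratios lay on the same side of 1 in all 3 kinds of cells. In the 5 anti-PD-L1 NK cells *Ly6c2*, a Ly6 surface protein, was at 30.1 against 7.53 UMIs per 10000 (3.99 times, 2.22 to 7.37), with all 32 UMIs in 3 cells, against 0.766 times in CD8 effector cells and 1.32 times in the other cells. *Tmsb10*, an actin-binding peptide, was 2.23 times (1.68 to 2.95), against 1.15 and 1.62 times.

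**Figure D5:**
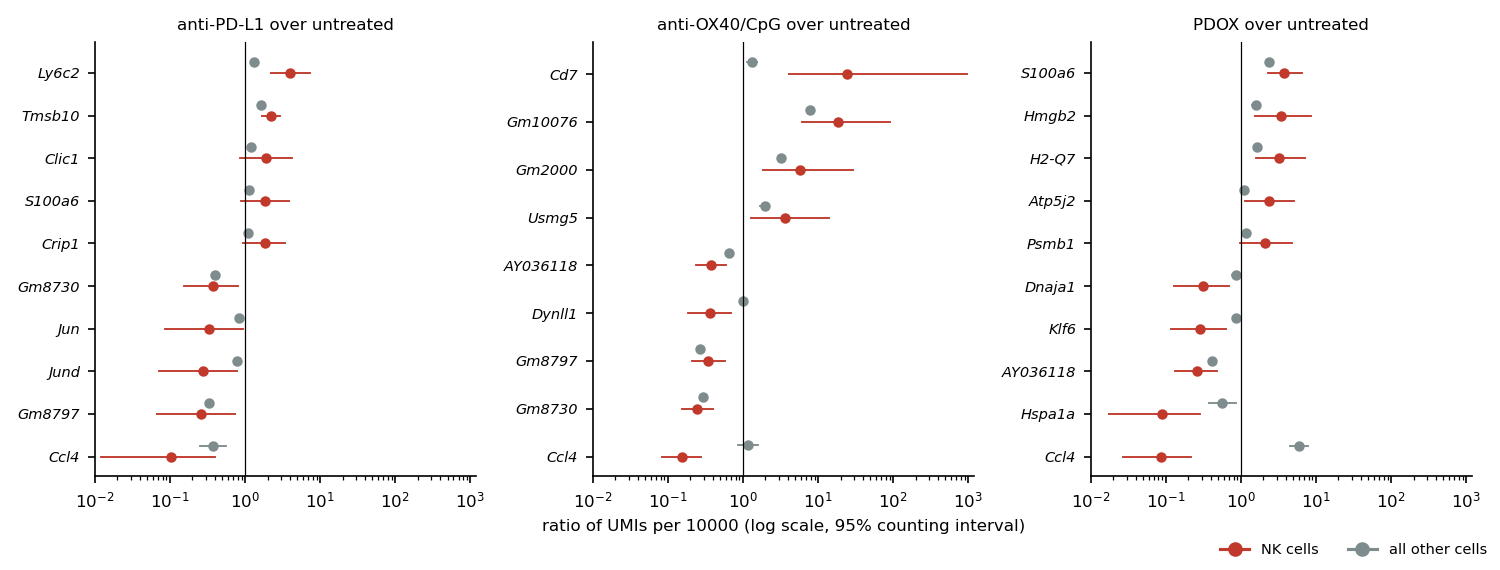
Ratio of the level (UMIs per 10000) in each treated library to that in the untreated library (log scale) for genes among the 5 highest and 5 lowest, in NK cells (red) and all other cells (gray); bars are exact 95% intervals for counting error. *Gm10076* and *S100a6* lie above 1 in both groups, while *Ccl4* in the PDOX panel lies below 1 in NK cells and above 1 in the other cells.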

How the data were processed

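Cells came from mouse blood enriched for T cells, in 4 10x Genomics 3′ libraries of 1 regimen each. The deposited values are raw UMI counts per gene and cell, which the authors made with Cell Ranger, and the submitters' processing notes name mm10 and Seurat 2. From these counts, cells with 200 to 2900 genes were kept (5276 of 5434), no doublet caller was run, and cells were chosen by the stated rules. The members and gene lists were chosen with earlier results of these data known. Deposited depth was 2392650 to 4969885 UMIs per library, and intervals cover counting error at the 95% level.

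Counts were summed per library and kind of cell and tested two-sided with edgeR 4.0.16 (quasi-likelihood, TMM, filterByExpr, Benjamini-Hochberg at 0.05) in R 4.3.3, for libraries with at least 10 cells of each kind. The library was a block, since both kinds of cells came from the same library. The p-values measure the spread among 3 libraries that also differ in treatment. Mitochondrial, ribosomal and hemoglobin genes (130) and the 12 genes of the rules were left out of the tested table. Named genes were those of the rules and lists, the 10 highest and 5 lowest called fold changes with the same sign in every library, and the 5 highest and 5 lowest ratios to the untreated library. A level of 0 was read as up to 3 UMIs for bounds. The test was tested on simulated counts, and a gene that was not called is not shown to be equal. Alternatives were DESeq2 1.42.0, other filters, rules and depths (750 UMIs per cell), and leaving out each library. Promoter windows came from RefSeq (GRCm38.p6), and 288 of 300 list genes were in the table of 27998 genes. Some genes are not reported here.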

Additional observations from a re-analysis of the deposited data

Results flagged for a closer look

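For 5 genes the ratio of NK cells to another kind of cell lay above 1 in some libraries and below 1 in others, with counting intervals that excluded 1 on both sides. The difference between libraries was not tested, since each regimen has 1 library. *Ccl3*, a chemokine, was 3.17 times the level of CD8 effector cells in the PDOX library (1.06 to 7.95; 6 NK UMIs) and 0.412 times in the anti-OX40/CpG library (0.209 to 0.739). *Ccl4*, a related chemokine, was 12.4 times in the untreated library (4.96 to 39.9), with 37 of 48 UMIs in 1 cell, and 0.355 times in the anti-OX40/CpG library (0.204 to 0.579).

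*Ly6c2*, a surface protein gene, was 2.70 times the CD8 effector level in the anti-PD-L1 library (1.81 to 3.89), where its 32 UMIs lay in 3 cells, and 1.44 times in the anti-OX40/CpG library (1.10 to 1.85). It was 0.517 times in the untreated library (0.292 to 0.884) and 0.621 times in the PDOX library (0.419 to 0.891). *Cd7* was 1.90 times in the anti-OX40/CpG library (1.38 to 2.59), with 22 of 55 UMIs in 1 cell, and 0.0760 times in the untreated library (0.00182 to 0.485). *Ctla2a* was 2.50 times the level of the other cells in the anti-OX40/CpG library (1.59 to 3.74) and 0.294 times in the PDOX library (0.0799 to 0.755).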

How the results depend on the processing

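Of 1836 log2 fold changes of named genes recomputed under the alternatives, 1675 kept their direction and side of the threshold, 158 kept their direction without a call, and 3 changed sign. Losses given with single genes above are mostly those on leaving out a library. Calls of named genes were also lost with DESeq2 (29), with no replicate block (27), at 750 UMIs per cell (19) and with at least 3 marker genes and 0 Cd3 UMIs (12). Against the other cells, *Slamf7* (2.17) and *Ifng* (1.49) lost their call by that last rule, and *Ikzf2* with DESeq2 (-2.945). The sign changes were *Hmgb2* against CD8 effector cells without the 5% of cells with the most UMIs (0.32), *Cd7* against the other cells (0.88) when the anti-OX40/CpG library was left out (-0.50, against 1.17 with the untreated one left out), and *H2-Ab1* against the other cells without cells holding markers of other lineages (0.49). The 131 calls among 754 genes against CD8 effector cells became 59 with DESeq2, 84 with no replicate block, 51 of 243 tested at 750 UMIs per cell, 218 of 11563 with no filter on low counts, 211 of 891 with mitochondrial, ribosomal and hemoglobin genes kept, and 297 of 1768 with *Ccl5* in place of granzymes in the rule for CD8 effector cells. Without 1 library they were 73 to 269 (269 of 3490 without the untreated, 80 of 540 without the anti-OX40/CpG and 73 of 791 without the PDOX library). The 590 calls among 6740 genes against the other cells became 289 with DESeq2, 384 with no replicate block, 319 of 4037 at 750 UMIs per cell and 354 to 371 without 1 library (6806 to 7964 tested). With at least 3 marker genes and 0 Cd3 UMIs, the anti-OX40/CpG share was 1.29% and the untreated share 1.53% (ratio 0.839). Genes at least 2 times from the untreated level were then 8 in the anti-PD-L1 library, in place of 15, and 27 in the anti-OX40/CpG library, in place of 44. In the PDOX library they were 29 by a mean over cells, in place of 15. The causes of these changes were not tested. The 5 anti-PD-L1 NK cells and the median of 1725 UMIs per NK cell limit all levels, and genes with few UMIs could not be tested.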
